A study of Sus scrofa with 8 samples.

Results

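The kinases described here are the genes of the study's comparison table of infarcted against remote pig heart whose annotation text contains the word kinase. The table holds 2331 probe clusters of the 25470 on the array, of which 1533 carry a gene symbol and 79 carry both a symbol and the word. After 3 of these were left out by name, 76 clusters remained for 73 genes, each represented by its brightest cluster. By what they encode, 42 are protein kinases, 14 are regulators or partners of protein kinases and 15 are metabolite kinases. The other 2, PLAU and PLAUR, were caught by the word urokinase and encode a secreted protease and its receptor.

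A kinase moves a phosphate group from ATP to another molecule. Protein kinases place it on other proteins and so carry signals from receptors, calcium and cAMP into the cell, while metabolite kinases place it on sugars, nucleotides, lipids and vitamins and set the entry or branching of metabolic routes. Heart muscle relies on calcium- and cAMP-dependent protein kinases for contraction and on adenylate kinases and mitochondrial kinases for its energy supply, and immune cells rely on a different set of tyrosine kinases to relay signals from their surface receptors.

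The tissue came from 4 young female Large White pigs in which the mid left anterior descending coronary artery had been closed by a balloon for 90 minutes and then reopened. From each heart 1 sample of the infarcted anterior wall of the left ventricle and 1 of the remote posterior wall were hybridised to a porcine whole-transcript array, giving 8 arrays. The series text puts the collection on day 7 after infarction and the methods of the study on day 10. All 4 pigs had received amiodarone and aspirin, so both regions shared these drugs, and remote tissue was viable muscle of an infarcted heart, not tissue of an uninjured pig. Values are log2 array signals, and a difference is infarcted minus remote signal within a pig, so that a difference of 1 is a doubling.

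The table itself was selected on this contrast, at an unadjusted p under 0.05 and a fold limit of 2, so every difference below is a description of genes that had already been picked for differing. The group averages in the table matched Tukey biweight averages of the 4 signals to within 0.0125, not plain means, from which they lay up to 1.215 apart. On the biweight averages the members closest to the fold limit were the LOC100521447 transcript at a size of 1.04, PLAU at 1.05, ARAF at 1.06, MAP2K2 at 1.07 and BMX at 1.08. Outside the table, clusters with p under 0.05 in the limma fit below were examined only under a size of 1. Their largest size, 0.999, was bounded by that choice, so nothing is read from it. By plain means 63 of the 73 differed at least 2-fold.

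The array medians lay between 2.96 and 3.22, and both samples of pig 4 stood apart, with a spread of signals over all clusters of 1.46 and 1.49 (SD) against 1.68 to 1.84 on the other 6 arrays. Of 15 cardiomyocyte marker genes, 9 were in the table and all 9 were lower in infarcted tissue. Their summed signal was 10.81 to 13.17 there and 13.52 to 14.42 in remote tissue. For macrophages 6 of 12 markers and for fibroblasts 7 of 12 were in the table, all of them higher in infarcted tissue, at summed signals of 7.70 to 9.24 against 6.25 to 6.65 and of 11.33 to 12.25 against 7.43 to 9.71. Of the neutrophil markers 2 of 8 were in the table, both higher, and of 10 lymphocyte markers 1 was, also higher. The part of these shifts in the kinase values was not tested, and in bulk tissue fewer cells of a type and less RNA per cell cannot be told apart.

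Of the 73 genes, 40 were higher in infarcted tissue, by a median of 1.30 (range 0.83 to 2.38), and 33 were lower, by a median of -1.45 (range -2.83 to -0.96). The infarcted and remote samples did not overlap for 47 of the 73, against 10.3% of all clusters, and all 4 pigs moved the same way for 63 of the 73, against 27.9% of all clusters. In a limma fit over all clusters with Benjamini-Hochberg adjustment 22 members were called higher and 23 lower at an adjusted p of 0.05, and 28 were not called, where 2.47% of all clusters were called higher, 3.42% lower and 5.90% in either direction. The members were chosen on this same contrast, so nothing is read from these shares. With pig as a block, 60 members and 10.2% of all clusters were called. The 28 not called without the block included the protein kinases NEK6, CASK, LOC100521543, LOC100521447, PTK7, CSNK1G1, PAK1, RPS6KC1, NIM1K, ARAF, MAP2K2 and CDKL1. They also included the regulators AKAP5, MOB1A, SKAP2, GIT2, PKIA, PACSIN3, PRKAB2 and PRKAR2A, the metabolite kinases AK4, PI4K2A, GK5, LOC106504996 and PFKFB2, and PLAUR. Protein kinases divided into 25 higher and 17 lower genes, regulators into 6 and 8, and metabolite kinases into 7 and 8.

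**Figure D1:**
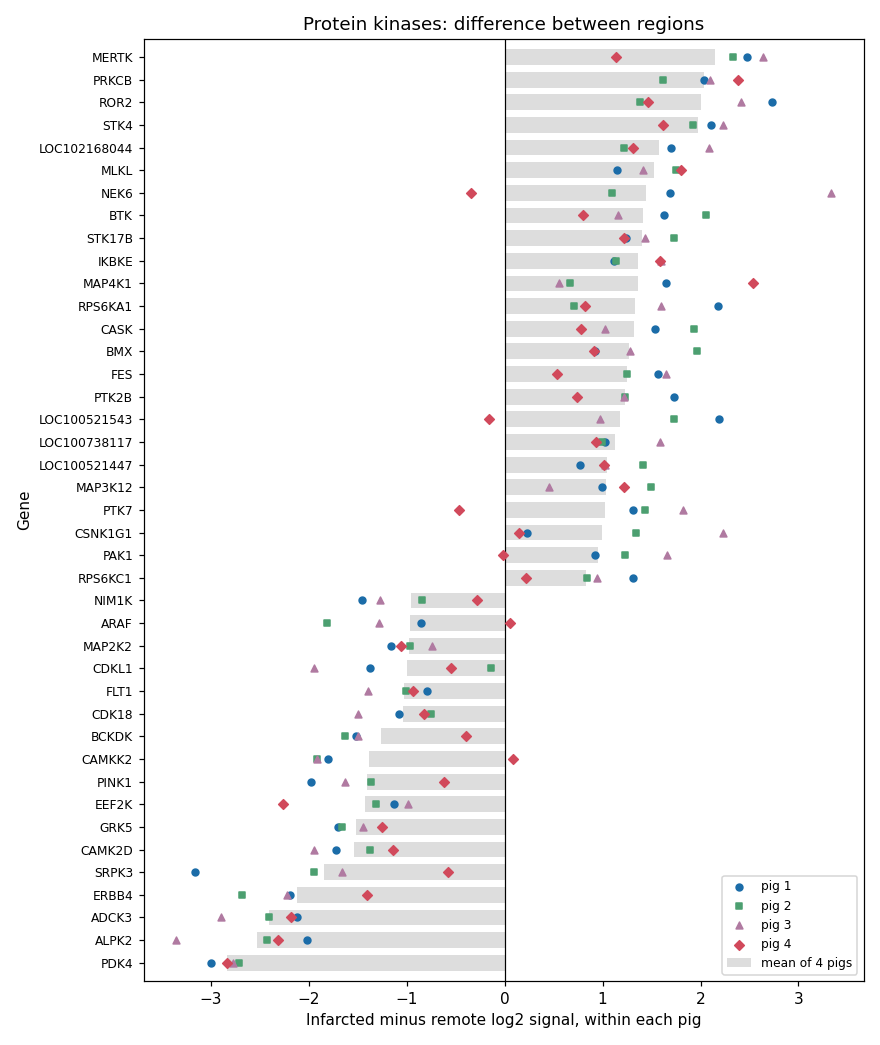
Infarcted minus remote log2 signal for 41 of the 42 protein kinases, with 1 point for each pig and a bar for the mean of the 4 pigs. The 24 higher genes plotted reach 2.15 (MERTK) and the 17 lower genes reach -2.83 (PDK4), and the red diamonds of pig 4 lie nearest to 0 for 24 of the 41 genes or cross it.

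The members are described in sets by role, which were drawn up after the members and their directions were known, so the count of higher or lower genes in a set describes these genes only and is no result about the role. The first set holds 14 kinases and adaptors that work below the surface receptors of leukocytes, 1 of them of unsettled identity. Their differences were 0.92 to 2.04 with a median of 1.32, and 11 of the 14 did not overlap between regions. Here and in the sets below, such counts describe members selected on this contrast, where 10.3% of all clusters did not overlap. PRKCB encodes protein kinase C beta, a calcium- and diacylglycerol-activated kinase of B cells and myeloid cells. Its signals were 6.61, 6.11, 6.58 and 6.21 in the infarcted tissue of pigs 1 to 4 and 4.57, 4.49, 4.48 and 3.83 in remote tissue, a difference of 2.04 ± 0.31 (SD, n = 4 pigs here and below). TYROBP, the adaptor DAP12 through which myeloid receptors reach the kinase SYK, gave 6.59, 6.02, 6.34 and 6.22 against 4.6, 4.27, 4.41 and 3.84, a difference of 2.01 ± 0.27. For both genes every infarcted sample stood well above every remote sample, and pig 4, the pig with the smallest difference for most members, had the largest.

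Other genes of the group were less even across pigs. PIK3AP1, an adaptor that links receptors to phosphoinositide 3-kinase, was at 5.97, 5.78, 5.75 and 4.80 in infarcted and 4.21, 4.0, 3.53 and 4.28 in remote tissue (1.57 ± 0.73), and the LOC102168044 transcript, annotated as similar to the lymphocyte kinase STK10, was at 5.35, 4.20, 4.67 and 4.71 against 3.65, 2.98, 2.58 and 3.40 (1.58 ± 0.40). Neither overlapped, although the infarcted sample of pig 4 lay well below the other 3 for PIK3AP1. Of the cytoplasmic tyrosine kinases 4 lay close together in size: BTK, which acts below the B cell receptor and in myeloid cells, at 1.41 ± 0.55, BMX, a Tec family kinase of endothelial and myeloid cells, at 1.27 ± 0.49, FES, a myeloid kinase that binds membranes, at 1.25 ± 0.51, and PTK2B, a calcium-sensitive relative of focal adhesion kinase, at 1.23 ± 0.40. In all 4 the difference was smallest in pig 4, between 0.54 for FES and 0.91 for BMX, and in all 4 the regions did not overlap. The remote means of BTK (2.20) and BMX (2.34) were below every array median, so that these genes were not shown to be above background in remote tissue.

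MAP4K1, a kinase of blood-forming cells that dampens antigen receptor signals, was an exception in its spread. It differed by 1.65, 0.67, 0.56 and 2.54 in pigs 1 to 4, so that pig 4 had the largest value by a wide margin. STK17B, a kinase of lymphocytes related to death-associated protein kinases, differed by 1.40 ± 0.24 with 1.22 in pig 4, which is a narrow spread for this set. SKAP2, an adaptor of Src family kinases in myeloid cells, differed by 1.32, 1.29 and 2.0 in pigs 1 to 3 and by -0.25 in pig 4, and its regions overlapped. The remote means of MAP4K1 (2.50) and SKAP2 (2.72) lay below every array median. The transcript similar to the leukocyte catalytic subunit PI3K gamma (LOC106504996) was higher by 0.92 ± 0.74 with 0.07 in pig 4. For LOC100521543 the deposited text names a megakaryocyte-associated tyrosine kinase while the current RefSeq entry of that identifier is ZFR2, so its identity is unsettled, and it differed by 2.19, 1.73, 0.97 and -0.16.

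A second set of higher genes takes part in inflammatory signalling and in cell death. STK4, the MST1 kinase of the Hippo pathway, was at 6.93, 6.74, 7.07 and 6.77 in infarcted tissue and 4.82, 4.82, 4.84 and 5.15 in remote tissue, a difference of 1.97 ± 0.27. The samples of each region lay within a narrow band, and the 2 bands were far apart. MOB1A, the partner protein that brings Hippo kinases to their targets, was higher in each pig by 0.84, 1.41, 1.16 and 1.71, but its levels in pig 4 (6.45 infarcted, 4.74 remote) were so much lower than in the other pigs that the regions overlapped. MLKL, the pseudokinase that carries out necroptosis, was at 4.65, 4.38, 3.93 and 4.40 against 3.50, 2.63, 2.52 and 2.60 (1.53 ± 0.31). IKBKE, a kinase that turns on interferon responses, differed by 1.36 ± 0.27, and the transcript annotated as MAP3K8 (LOC100738117), which activates the ERK cascade below Toll-like receptors, by 1.13 ± 0.31. For MLKL, IKBKE and the MAP3K8 transcript the regions did not overlap, and their remote means of 2.81, 2.87 and 2.18 lay below every array median. Among these 5 genes pig 4 had the largest difference for MLKL and MOB1A and the smallest for STK4 and the MAP3K8 transcript.

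Receptor tyrosine kinases split by receptor. MERTK, through which macrophages take up dying cells, was at 6.28, 5.81, 6.03 and 4.90 in infarcted tissue and 3.81, 3.48, 3.39 and 3.76 in remote tissue, and ROR2, a receptor for WNT5A in mesenchymal cells, was at 4.86, 4.12, 4.64 and 3.95 against 2.13, 2.74, 2.23 and 2.49. Both were higher in infarcted tissue in each pig, by 2.15 ± 0.68 for MERTK and 2.0 ± 0.68 for ROR2, with no overlap, and the remote mean of ROR2 (2.40) was below every array median. ERBB4, the receptor through which neuregulin acts on cardiomyocytes, ran the other way, at 3.72, 3.54, 3.67 and 3.39 in infarcted and 5.91, 6.22, 5.89 and 4.79 in remote tissue, a difference of -2.12 ± 0.53. Its infarcted samples were tightly grouped while the remote sample of pig 4 was more than 1 log2 unit below the other 3, and a second ERBB4 cluster differed by -1.77 ± 0.96. FLT1, a receptor for vascular endothelial growth factor and the one endothelial marker of 8 in the table, was lower by 0.79, 1.01, 1.39 and 0.94. PTK7, a pseudokinase co-receptor of Wnt signalling, was higher in pigs 1 to 3 (1.31, 1.43 and 1.82) and lower in pig 4 (-0.47), and its remote mean (2.84) lay below every array median. Within each pig the MERTK difference exceeded that of ERBB4, by 4.27 ± 1.16 on average. This pair, like the other pairs of genes set against each other below, was picked after the values were seen.

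Of 9 further genes placed with the growth factor and MAP kinase cascades, 6 were higher, by 0.83 to 1.33, and 3 were lower, by -1.57 to -0.97, and 3 of the 9 did not overlap between regions. This set leaves out kinases of the same family that are described above. Of all 6 members of the MAP kinase cascade family, 5 were higher, by 0.95 to 1.97 with a median of 1.36 (STK4, LOC102168044, MAP4K1, the MAP3K8 transcript and PAK1), and MAP2K2 was lower. RPS6KA1, a ribosomal S6 kinase activated by ERK, differed by 2.18, 0.71, 1.60 and 0.82, and MAP3K12, a kinase upstream of JNK, by 0.99, 1.49, 0.45 and 1.22. Both were higher in all 4 pigs with a more than 3-fold range in the size of the log2 difference from pig to pig. PAK1, an effector of the small GTPases RAC and CDC42, was higher by 0.92, 1.23 and 1.66 in pigs 1 to 3 and level in pig 4 (-0.02), and GIT2, a scaffold that binds PAK partners, was higher by 1.43, 1.12 and 1.27 and then -0.31. The transcript annotated as SGK3 (LOC100521447) differed by 1.05 ± 0.26 and RPS6KC1, a relative of the S6 kinases, by 0.83 ± 0.45, the smallest mean of the 40 higher genes.

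On the lower side of this cascade, MAP2K2, the MEK2 kinase that activates ERK, differed by -1.16, -0.97, -0.74 and -1.06, and ARAF, a RAF kinase upstream of it, by -0.85, -1.81, -1.28 and 0.06. The regions overlapped for both, in MAP2K2 because both samples of pig 4 (5.56 and 6.62) were lower than those of the other pigs. CNKSR2, a scaffold of RAF signalling, was the clear member of the set, at 3.33, 3.29, 2.77 and 3.15 in infarcted and 5.06, 4.82, 4.6 and 4.34 in remote tissue (-1.57 ± 0.28). No infarcted sample came within 1 log2 unit of a remote sample. PAK1 and MAP2K2 differed from each other in their response by 1.93 ± 0.61 over the 4 pigs.

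Of 9 kinases and anchors placed with calcium, cAMP and adrenergic signalling, 7 were lower, with a median of -1.52 among the 7. This set leaves out PRKCB, PTK2B and STK17B, described above, which were higher by 2.04, 1.23 and 1.40. Of all 5 members of the calcium/calmodulin-dependent and related kinase family, 2 were higher and 3 were lower. CAMK2D, the main calcium/calmodulin-dependent kinase II of heart muscle, was at 8.79, 9.41, 8.38 and 9.24 in infarcted and 10.51, 10.78, 10.33 and 10.38 in remote tissue, a difference of -1.54 ± 0.36. GRK5, which phosphorylates and silences beta-adrenergic receptors, was at 4.57, 4.60, 4.35 and 5.14 against 6.27, 6.26, 5.80 and 6.39 (-1.52 ± 0.21). Both were lower in each pig with no overlap, and both were least reduced in pig 4. EEF2K, a calcium-dependent kinase that slows protein synthesis, was lower by 1.13, 1.31, 0.99 and 2.26, so that pig 4 had by far the largest drop, and CAMKK2, the calmodulin-dependent kinase that activates AMP-activated protein kinase, was lower by 1.80, 1.92 and 1.91 in pigs 1 to 3 and level in pig 4 (0.09).

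Several genes that regulate or anchor protein kinase A, the cAMP-dependent kinase, were lower, and their transcript levels give no measure of its activity. PRKAR2A, a regulatory subunit of protein kinase A, was at 4.96, 5.59, 4.50 and 3.97 in infarcted and 6.69, 7.56, 6.47 and 5.27 in remote tissue, a difference of -1.74 ± 0.32. The difference was alike from pig to pig although the regions overlapped, since pig 4 was low in both. PKIA, an inhibitor peptide of protein kinase A, differed by -1.34 ± 0.46 with overlap of the same origin. In the limma fit without a pig term neither PRKAR2A nor PKIA was called (adjusted p 0.0562 for each). AKAP6, which anchors protein kinase A at the nuclear envelope of muscle cells, was at 4.88, 5.62, 4.18 and 4.49 against 6.78, 7.20, 6.71 and 5.84 (-1.84 ± 0.51), with no overlap.

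The 2 higher genes here were AKAP5, which anchors protein kinase A at the plasma membrane, and CASK, a calmodulin-dependent kinase-like scaffold of cell junctions. AKAP5 was at 5.51, 5.65, 4.78 and 3.91 in infarcted and 3.30, 3.52, 3.81 and 3.88 in remote tissue, and its difference of 1.34 ± 1.04 came down to 0.03 in pig 4. The gap between the AKAP5 and AKAP6 differences was positive in all 4 pigs, at 3.18 ± 1.22. CASK differed by 1.54, 1.93, 1.03 and 0.78, with overlap between regions.

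**Figure D2:**
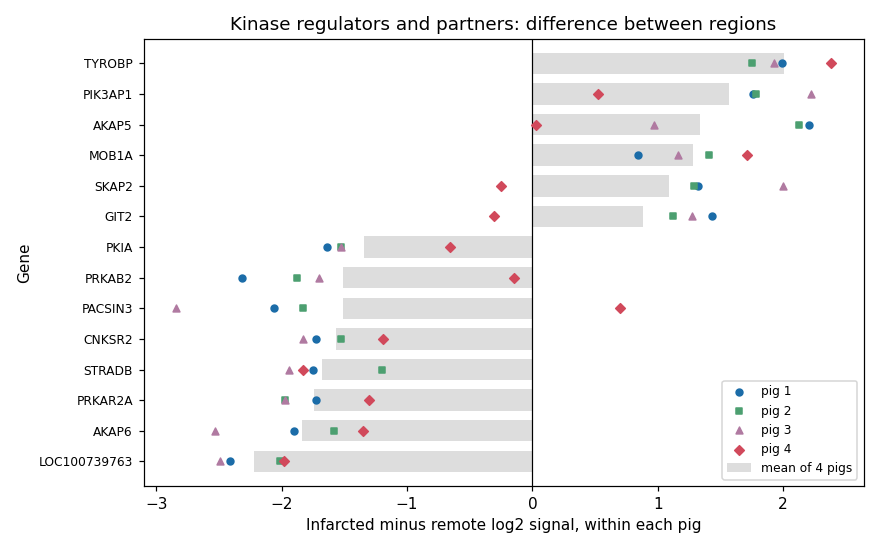
Infarcted minus remote log2 signal for the 14 kinase regulators and partners, with 1 point for each pig and a bar for the mean of the 4 pigs. TYROBP (2.01) and the AMP-activated protein kinase gamma-like transcript LOC100739763 (-2.22) sit at the ends with their 4 points close together, while pig 4 lies on the other side of 0 from the mean for SKAP2, GIT2 and PACSIN3.

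The 6 genes placed with muscle-enriched kinases and energy sensing were all lower, by -2.53 to -1.51. Only ALPK2 and SRPK3 of them are protein kinases, and the others are regulators or partners. The energy-sensing AMP-activated protein kinase is represented here only by LOC100739763 and PRKAB2, for a gamma and a beta subunit. ALPK2, an alpha-kinase of heart muscle, was at 3.90, 4.05, 2.79 and 3.49 in infarcted and 5.92, 6.48, 6.14 and 5.80 in remote tissue, a difference of -2.53 ± 0.57. The LOC100739763 transcript, annotated as similar to the gamma-3 subunit of AMP-activated protein kinase, was at 2.26, 2.18, 2.04 and 3.37 against 4.67, 4.19, 4.53 and 5.35 (-2.22 ± 0.27). In both the regions were fully separate, and for LOC100739763 pig 4 was highest in both regions and the infarcted mean (2.46) lay below every array median. STRADB, a pseudokinase partner of the upstream kinase LKB1, was at 5.91, 6.58, 5.64 and 4.84 in infarcted and 7.66, 7.78, 7.58 and 6.67 in remote tissue (-1.68 ± 0.33), again without overlap.

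In the remaining 3 of these genes the size depended on the pig. SRPK3, a muscle-specific kinase of splicing factors, was at 1.82, 3.19, 2.23 and 3.56 in infarcted and 4.98, 5.14, 3.89 and 4.14 in remote tissue, so its differences ran from -3.16 in pig 1 to -0.58 in pig 4. Its infarcted mean (2.70) lay below every array median. PRKAB2, the beta-2 subunit of AMP-activated protein kinase, was lower by 2.32, 1.88 and 1.70 in pigs 1 to 3 and by 0.15 in pig 4. PACSIN3, a membrane-bending protein of muscle that is annotated as a kinase substrate, was lower by 2.06, 1.83 and 2.84 in pigs 1 to 3 and higher in pig 4 (0.70), the largest of the opposite values.

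All 4 protein kinases that work in mitochondria were lower, with no overlap between regions in any of them. PDK4 inhibits the pyruvate dehydrogenase complex and so holds back the use of glucose in favour of fatty acids. It had the largest mean difference of the 73 genes and the most even one, at 6.68, 6.08, 6.13 and 5.43 in infarcted and 9.68, 8.79, 8.90 and 8.26 in remote tissue, which gives -3.0, -2.71, -2.77 and -2.83 in pigs 1 to 4 and -2.83 ± 0.12 on average, a 7.10-fold lower signal. ADCK3, an atypical kinase needed for coenzyme Q synthesis, was at 3.03, 3.06, 2.46 and 3.59 against 5.15, 5.46, 5.35 and 5.77 (-2.40 ± 0.35). Pig 4 was in range with the other pigs for both genes. BCKDK, the kinase that inhibits the breakdown of branched-chain amino acids, was lower by 1.52, 1.63, 1.5 and 0.39, and PINK1, which marks damaged mitochondria for removal, by 1.98, 1.36, 1.63 and 0.62, and for both pig 4 showed the smallest drop.

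The last 5 protein kinases are related to the cell cycle or have few described roles, and they formed no common direction. NEK6, a mitotic kinase, differed by 1.69, 1.10, 3.33 and -0.34, the widest spread of any protein kinase here (SD 1.52). CSNK1G1, a casein kinase, was higher by 0.99 ± 0.99, and CDK18, CDKL1 and NIM1K were lower by 1.04 ± 0.34, 1.0 ± 0.81 and 0.96 ± 0.52. Of the 5 only CDK18 was free of overlap, and its infarcted mean of 2.80 lay below every array median.

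Metabolite kinases differed in direction within families, in some of them with different isoforms of an enzyme on either side. The adenylate kinases, which balance ATP, ADP and AMP, were the widest case. AK1, the cytosolic form of muscle, was at 4.13, 4.18, 3.65 and 4.79 in infarcted and 7.41, 7.61, 7.29 and 5.52 in remote tissue, a difference of -2.77 ± 1.37 (6.82-fold). Pigs 1 to 3 lost more than 3 log2 units while pig 4 lost 0.73, its remote sample being the low one. AK3, a form of the mitochondrial matrix, was lower in each pig by 1.21, 1.19, 1.07 and 0.55.

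AK4, the other form of the mitochondrial matrix, was higher in each pig. Its signals were 5.59, 5.58, 5.19 and 4.10 in infarcted and 4.07, 3.46, 4.46 and 2.82 in remote tissue, a difference of 1.41 ± 0.58, and the regions overlapped because the levels of pig 4 were low in both. The differences of AK4 and AK1 lay 4.80, 5.55, 4.37 and 2.01 apart in pigs 1 to 4, and those of AK4 and AK3 lay 2.42 ± 0.73 apart. The opposite direction of AK4 held within every heart. AK4 was not called in the limma fit without a pig term (adjusted p 0.0792) and was called with pig as a block (0.00828). Its cluster is also assigned to a further locus.

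**Figure D3:**
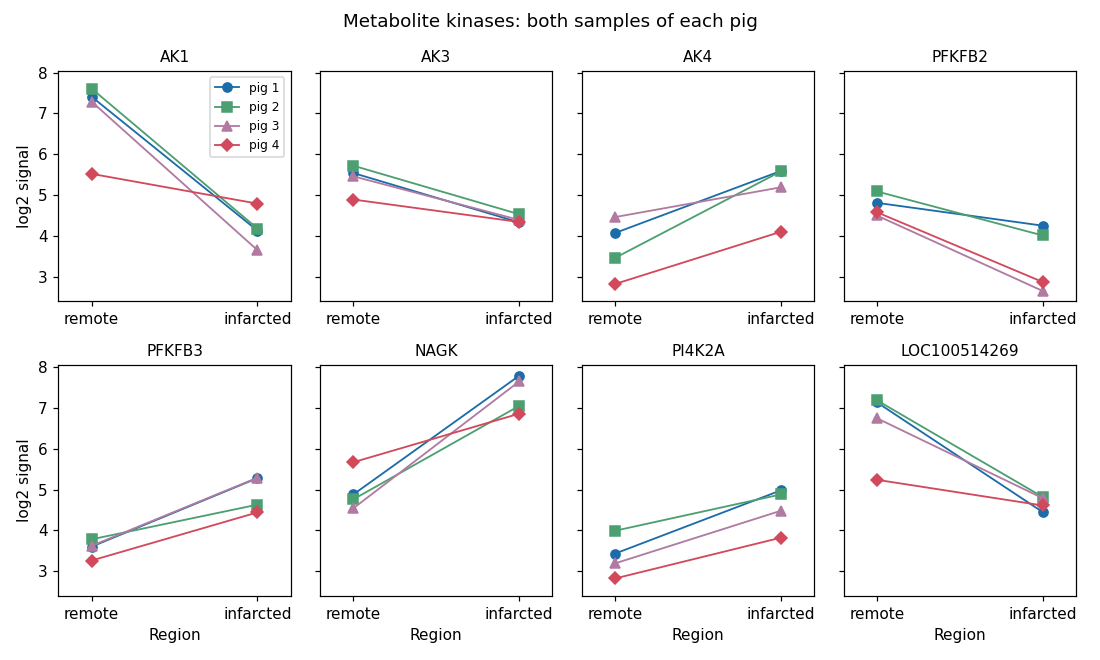
Log2 signal of 8 metabolite kinases in the remote and infarcted sample of each pig, with a line joining the samples of 1 pig. AK1, AK3, PFKFB2 and LOC100514269 slope down and AK4, PFKFB3, NAGK and PI4K2A slope up in all 4 pigs, and the AK1 line of pig 4 starts at 5.52 where the other 3 start between 7.29 and 7.61.

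In sugar metabolism NAGK, which salvages N-acetylglucosamine from broken-down glycans, had the largest difference of all 40 higher members. It was at 7.79, 7.05, 7.65 and 6.86 in infarcted and 4.88, 4.76, 4.54 and 5.67 in remote tissue (2.38 ± 0.86, 5.19-fold), and pig 4 had both the lowest infarcted and the highest remote value without the regions meeting. PFKFB3 and PFKFB2 are bifunctional enzymes that set the level of the main activator of phosphofructokinase, the first inducible by hypoxia and inflammation and the second typical of heart. PFKFB3 was at 5.28, 4.63, 5.29 and 4.44 against 3.60, 3.78, 3.62 and 3.26, and PFKFB2 at 4.25, 4.01, 2.65 and 2.87 against 4.81, 5.09, 4.50 and 4.58. Neither overlapped between regions, PFKFB3 being higher by 1.34 ± 0.40 and PFKFB2 lower by 1.30 ± 0.60, and their differences lay 2.24, 1.93, 3.52 and 2.89 apart in pigs 1 to 4. A second PFKFB3 cluster differed by 1.11 ± 0.33. PFKFB2 was not called in the limma fit without a pig term (adjusted p 0.0642) and was called with pig as a block (0.0124). GK5, a glycerol kinase-like enzyme, was higher by 1.14, 1.88 and 1.11 in pigs 1 to 3 and lower in pig 4 (-0.40).

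The phosphoinositide kinases, which are different enzymes and not isoforms, also lay on either side. Counted with the PI3K gamma-like transcript described above (LOC106504996, 0.92) and the lipid kinases below, 3 were higher and 3 were lower. The LOC100514269 transcript, annotated as similar to the type 1 alpha kinase that makes the plasma membrane lipid PIP2 from phosphatidylinositol phosphate, was at 4.45, 4.82, 4.79 and 4.61 in infarcted and 7.14, 7.19, 6.75 and 5.24 in remote tissue (-1.91 ± 0.91). The infarcted samples were nearly level, so the smaller drop of pig 4 lay in its remote sample. PI4K2A, a phosphatidylinositol kinase of the Golgi and endosomes, was at 4.98, 4.88, 4.48 and 3.82 against 3.43, 3.99, 3.19 and 2.82 (1.18 ± 0.30), and PIP4K2A, which converts another phosphatidylinositol phosphate to PIP2, at 4.78, 5.42, 5.32 and 5.38 against 4.25, 4.32, 4.59 and 4.19 (0.89 ± 0.31). Both were higher in all 4 pigs, with overlap for PI4K2A, and their differences exceeded that of LOC100514269 by 3.10 ± 1.08 and 2.80 ± 0.73. PI4K2A was not called in the limma fit without a pig term (adjusted p 0.0585) and was called with pig as a block (0.00756).

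Among the other lipid and cofactor kinases every mean was lower. DGKZ, which removes the messenger diacylglycerol, was at 4.03, 3.89, 4.04 and 3.69 in infarcted and 5.03, 5.42, 4.30 and 5.15 in remote tissue (-1.06 ± 0.58), and PMVK, an enzyme of the mevalonate route to cholesterol, was at 2.43, 2.77, 2.68 and 2.40 against 3.66, 3.28, 3.86 and 3.86 (-1.10 ± 0.41). Neither overlapped, and the infarcted mean of PMVK (2.57) lay below every array median. PANK1, which starts coenzyme A synthesis, was at 3.35, 4.11, 3.64 and 3.79 against 4.32, 4.62, 5.11 and 5.23 (-1.10 ± 0.45), again apart.

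The urokinase protease PLAU was higher by 0.57, 1.37, 1.56 and 0.71 and its receptor PLAUR by 1.16, 2.53, 2.32 and 0.20. Both were higher in all 4 pigs, and only PLAU was free of overlap between regions.

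The size of the differences varied by pig. The median size, taken in the direction of each gene's mean, was 1.63, 1.53, 1.60 and 0.93 in pigs 1 to 4, and pig 4 had the smallest difference for 44 of the 73 genes (60.3%). In 10 genes (NEK6, PTK7, PAK1, SKAP2, GIT2, GK5, LOC100521543, ARAF, CAMKK2 and PACSIN3) pig 4 lay on the other side of 0 from the mean, and no other pig did so for any member. The 1457 other named clusters of the table showed the same lean, with medians of 1.66, 1.56, 1.64 and 0.82 and pig 4 smallest in 71.8%, so it was not particular to kinases. With pig 4 set aside, the higher members had a median of 1.46 and the lower members of -1.66, and the regions did not overlap for 72 of 73 genes, CDKL1 being the exception, where 28.6% of all clusters did not overlap over these 3 pigs. The macrophage marker sum also differed least in pig 4 (1.26 against 2.18 to 2.75), as did the cardiomyocyte sum (-0.39 against -3.51 to -1.25). The fibroblast sum went the other way and differed most in pig 4 (3.90 against 2.48 to 2.88). The signals are summed on the linear scale, so the brightest genes weigh most, and the single fibroblast markers were mixed. COL1A1 (5.29), POSTN (5.09) and COL3A1 (2.61) differed most in pig 4, COL1A2 (2.27) and ACTA2 (0.46) differed least there, and FAP and CTHRC1 lay between. The part of tissue make-up in the values of pig 4 was not tested.

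**Figure D4:**
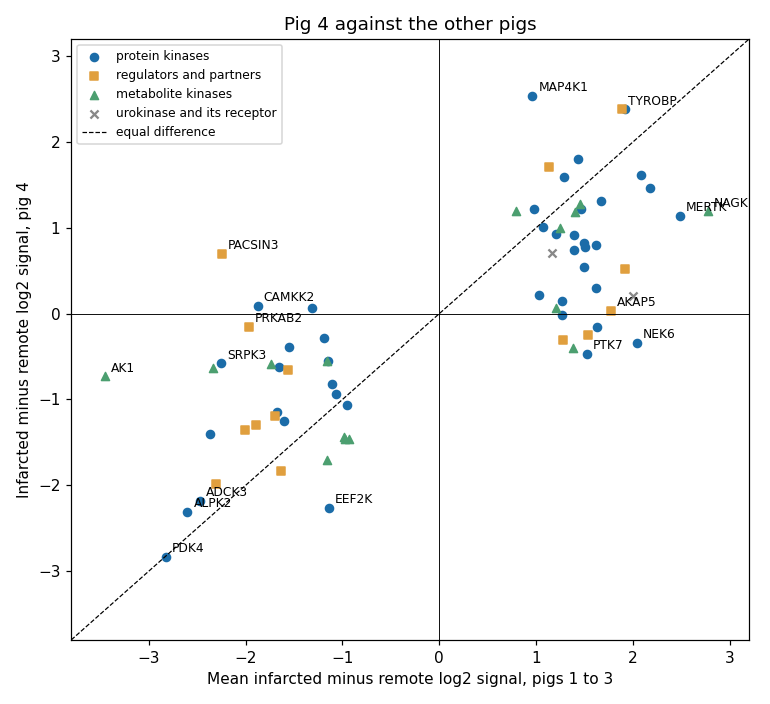
Difference in pig 4 (vertical axis, log2) against the mean difference of pigs 1 to 3 (horizontal axis, log2) for the 73 genes, with colour and marker for the class and a dashed line where both are equal. Most points lie closer to 0 on the vertical than on the horizontal axis, PDK4 lies on the line at -2.83, and MAP4K1 (2.54) and EEF2K (-2.26) are among the 8 genes for which pig 4 had the largest difference.

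Several genes differed by much the same amount in each pig. PDK4 (SD 0.12 over the 4 pigs), MAP2K2 (0.18), GRK5 (0.21), STK17B (0.24), FLT1 and the SGK3 transcript (0.26 each) had the narrowest spreads, and AK1 (1.37), NEK6 (1.52) and PACSIN3 (1.53) the widest. The limits of these values are shared annotation and low signal. For 14 of the 73 genes, MERTK, STK4, MLKL, AKAP6, AK4 and MAP2K2 among them, the cluster is also assigned to at least 1 further locus, and for 14 the lower of the 2 group means lay below every array median, which does not show them above background there.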

How the data were processed

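Of the deposited files, the value table gives log2 signals that the authors made from the scanned arrays in Transcriptome Analysis Console, for which neither version nor summarisation is stated in the paper or labels. The authors' methods name a fold change above 2 and a false discovery rate under 0.05, but all 2331 rows of the comparison table have an unadjusted p under 0.05 and not all pass at that false discovery rate. The table was used for symbols, annotation text, and a check of its group averages. Its fold changes, p-values and false discovery rates were not used otherwise. All 8 arrays were used and 0 columns were left out.

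Members and lists were chosen with earlier results of these data known. Symbols were updated from RefSeq for 4 genes, MERTK, STK4, IKBKE and SKAP2, whose clusters carry only locus identifiers as deposited symbols. A further step placed 12 genes in a class after their names were seen, and the grouping by role was made then too. Where a gene had more than 1 cluster (3 genes), the brightest over all arrays was used. No sequence or coordinate is printed. Differences are infarcted minus remote within a pig, with the SD over 4 pigs. limma 3.58.1 (R 4.3.3) was fitted to all 25470 clusters without a pig term (lmFit, eBayes, Benjamini-Hochberg), and tested on simulated data. Python 3.11.15, pandas 2.3.3, numpy 2.4.6 and matplotlib 3.10.9 did the rest. Named genes were the 5 largest higher and 5 largest lower of each class and the metabolite kinases with all 4 signals of a region above the array medians, with further members as examples. A few members are counted but not reported singly here.

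Both samples of each pig were taken from 1 heart and are therefore paired. The deviations of the 2 samples of a pig from their region's mean correlated over clusters at 0.177, 0.428, 0.113 and 0.441 in pigs 1 to 4. The highest correlation of either sample with the other region of another pig was 0.335, 0.335, 0.0904 and -0.00162. Pig 1 thus lay below its best match in another pig, and pig 3 only just above. Alternatives were a pig block, quantile normalization, median centring, a signal filter, array weights, the mean over clusters of a gene, single-symbol clusters, leaving out arrays and, added after seeing the data, biweight averages. The number of arrays limits the precision.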

Additional observations from a re-analysis of the deposited data

Results flagged for a closer look

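Among 34 named genes, 68 groups of 4 samples were examined for a sample far from the other 3, and 5 had one, where chance marks about 1 in 20 groups. In 4 of the 5 the sample came from pig 4. The remote sample of pig 4 was low for AK1 (5.52, others 7.29 to 7.61) and PRKCB (3.83, others 4.48 to 4.57) and high for STK4 (5.15, others 4.82 to 4.84), and its infarcted sample was high for LOC100739763 (3.37, others 2.04 to 2.26). The infarcted sample of pig 1 was low for PIP4K2A (4.78, others 5.32 to 5.42).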

How the results depend on the processing

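No named gene reversed its direction under any alternative run. Most of them were picked for large differences in this same contrast, and the pig block leaves the mean difference as it was, so little is read from this. With pig as a block, 60 of the 73 members were called at an adjusted p of 0.05 (30 higher and 30 lower) in place of 45. The share of all clusters called went from 5.90% (1502) to 10.2% (2604). With 45 of the 73 already called, the count of members had little room to rise, so the sizes of these changes are not compared. Array weights, which gave the arrays of pig 4 weights of 0.29 and 0.32 against 1.02 to 2.33, called 72 members (39 higher) and 16.1% of all clusters and moved the median of the lower regulators from -1.62 to -1.94, and leaving out both arrays of pig 4 called 70 members (40 higher) and 14.4% of all clusters. Leaving out 1 array at a time called 25 to 63 members, 13 to 39 higher and 11 to 28 lower, and 2.72% to 9.29% of all clusters, with the lowest member total without the remote sample of pig 2 and the highest without the infarcted sample of pig 4. The same step gave 6 to 11 of the phosphatase genes in place of 11, and a lower regulator median of -1.94 to -1.46. The members' counts moved together with those of the whole array, and the cause was not tested. All 73 members were at least 2-fold by biweight averages against 63 by plain means. The first count restates the fold limit by which the members were selected. With 4 pigs and a median standard error of 0.274 over all clusters, calls near the threshold rest on single arrays.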

Other observations

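Phosphatases remove what kinases add. Of 144 phosphatase genes and subunits listed, 14 were in the table, 2 higher and 12 lower in infarcted tissue, with a median difference of -1.68. Of the 1457 named clusters of the table outside the kinase members, 638 were higher and 819 lower. DUSP26, a dual-specificity phosphatase, differed by -2.56 ± 1.0 (SD, n = 4 pigs), PTPN4, a tyrosine phosphatase, by -2.25 ± 0.53, and PPP1R3C, which targets protein phosphatase 1 to glycogen, by -1.75 ± 0.46. The 2 higher genes were PTPRC, the CD45 phosphatase of all leukocytes (2.19 ± 0.24), and PTPRO, a receptor phosphatase (1.75 ± 0.76). For PTPRO the regions overlapped and the remote mean (2.41) lay below every array median. It was not called in the limma fit without a pig term (adjusted p 0.0795). PPTC7 and PDPR, a mitochondrial phosphatase and the regulatory subunit of pyruvate dehydrogenase phosphatase, differed by -1.68 ± 0.34 and -1.69 ± 0.62, so in infarcted tissue the kinase PDK4 and the phosphatase subunit PDPR of the pyruvate dehydrogenase complex were both lower. These genes come from a table selected on the same contrast, and no test was made on them as a group.

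A further 10 genes that belong to kinase families or kinase signalling are in the table but lack the word in their text, 6 higher and 4 lower. BANK1, an adaptor of B cell receptor signalling (2.11 ± 0.42), CIB1, a calcium-binding partner of kinases (1.53 ± 0.16), and PAPSS2, which makes the sulfate donor (1.57 ± 0.60), were higher. INSR, the insulin receptor kinase, and its substrate IRS1 differed by -1.22 ± 0.35 and -1.15 ± 0.72, and GHR, the growth hormone receptor, by -1.46 ± 0.65.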
